A study of Mus musculus with 48 samples.

Results

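Adenosine-to-inosine (A-to-I) editing was described here at the sites that the deposited tables annotate as lying in non-coding RNA (ncRNA). Of the 48715 positions in each table, 782 carried that annotation, 29 of them in uc007vsb.1, a transcript left out. Of the remaining 753 positions, in 128 transcripts, 367 positions in 16 transcripts had over 100 reads in at least 1 of 48 libraries, and these are the ncRNA sites. They made up 367 of the 7339 positions of any annotation that reached this depth. Editing levels are given as edited reads in percent of the reads covering the position, and only where a library had over 100 of them.

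The libraries came from microfluidic multiplex PCR and sequencing (mmPCR-seq), in which known editing loci are amplified from cDNA and sequenced deeply. Male C57BL/6 mice of 12 weeks were either Adar1+/+ Ifih1-/- (WT) or Adar1E861A/E861A Ifih1-/- (E861A), with 3 libraries per genotype as independent biological replicates in the brain, heart, kidney, liver, small intestine, spleen and thymus and in haematopoietic cells of the bone marrow (BM). Both genotypes lack Ifih1, which encodes the cytoplasmic double-stranded RNA sensor MDA5, and no group with MDA5 is among these libraries. The tissue list in the protocol does not name liver while the sample labels do, and liver was kept.

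ADAR1 and ADAR2 deaminate adenosine to inosine in double-stranded RNA, and inosine is read as guanosine by reverse transcriptase. The E861A change removes the deaminase activity of ADAR1 and leaves the protein, while ADAR2, abundant in the nervous system, is still encoded normally. Heavily edited stretches are usually inverted copies of a repeat within the same RNA, since these fold back on each other. Non-coding RNAs have no reading frame, so their editing changes no protein.

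The 16 transcripts were placed on mm9 (NCBIM37), in which all 367 positions are adenosines on the annotated strand. By the GENCODE M1 annotation, 9 belong to genes typed as long intergenic non-coding RNA or processed transcript, among them Meg3, an imprinted RNA expressed from the maternal chromosome, and uc007ugi.2, a part of Dleu2, the host RNA of the miR-15a and miR-16-1 precursors. The other 7 lie in exons of genes typed as protein coding. Of these, uc012aji.1 (Tulp4, chromosome 17), uc012fou.1 (Me3, the mitochondrial NADP-dependent malic enzyme, chromosome 7) and uc007lfv.1 (Cdk12, a transcriptional kinase, chromosome 11) lie in exons of processed transcripts, and uc007zgk.1 (Qtrt2, annotated there as Qtrtd1, chromosome 16) in a retained intron. The sites of uc011ynq.1 (4930447C04Rik, chromosome 12), uc007ctm.1 (Gm4793, chromosome 1) and uc009jxt.1 (B230325K18Rik, chromosome 7) lie in untranslated exon sequence of that annotation. No ncRNA site lay in coding sequence.

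The stretches below hold the called kidney sites with the rest of the Tulp4 cluster, and the brain sites of 6 other transcripts described later, read 5′ to 3′ on the transcribed strand of NCBIM37. Capitals mark ncRNA sites whose level was above 1% in at least 1 tissue and genotype. Those of the Tulp4 transcript are at chr17:6122600-6122629 (first arm), chr17:6123044-6123073 and chr17:6123061-6123090 (second arm, overlapping) and chr17:6123088-6123117 (end of the second arm), plus strand.
Tulp4 first arm: gcacctctAgctgtcctAgaActtgatatg
Tulp4 second arm, start: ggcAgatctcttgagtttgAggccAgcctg
Tulp4 second arm, middle: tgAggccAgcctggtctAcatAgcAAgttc
Tulp4 second arm, end: ttctaggAcagccAgagctatgttAgcgag
The next 2 are clusters edited in the brain, at chr12:74010045-74010074 (minus strand) and chr7:96914442-96914471 (plus strand), followed by the last edited site of Me3 at chr7:96914465-96914494.
uc011ynq.1: ccAttccgtcctAAgccAttctttAAAtgc
Me3: tcAcattAttgtgttAgtagAcatagcAgg
Me3 last site: tagcAggcctatacgtttgtttctttAggc
The last 4 hold sites outside such clusters, at chr11:3357579-3357608 (plus), chr14:62295227-62295256 (minus), chr12:110797208-110797237 (plus) and chr16:43871089-43871118 (minus).
uc007hsx.1: taactccagttccaAggAatctgatgcctg
Dleu2: cacattaacaaAacAcaAgggctggaaaga
Meg3: tctggggtcttgaaAcAggtttctcatggg
Qtrt2: tattccaAgctggcctcAAacttgctatgg

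Reads over all positions summed to 1861831 to 11394093 per library, and 77 to 345 of the ncRNA sites had over 100 reads, with a median of 450 to 1923 reads at these sites. The fewest were in BM WT replicate 2. No pair of libraries held identical values. The tables hold no expression values, so the tissue labels were not checked against marker genes. The tissues are bulk samples, in which a lower level per cell and another mix of cells cannot be told apart. The reads are PCR products without molecular identifiers, so intervals and limits below cover counting error only.

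A site was called covered in a tissue with over 100 reads in at least 2 of 3 libraries of both genotypes, and edited there with a level above 1%, from the reads of its covered libraries together, in either genotype. In all, 320 ncRNA sites in 14 transcripts were covered in some tissue, 117 of them in all 8 tissues. Of these, 73 sites in 13 transcripts were edited somewhere. Most ncRNA sites carried little editing. In no library did 328 of the 367 sites exceed 10%, and 219 never exceeded 1%.

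Brain had the most edited ncRNA sites, 35 of 192 covered (18.2%), against 20.5% of the covered sites of all annotations. Liver had 22 of 219 (10.0%, all annotations 14.0%), BM 17 of 203 (8.37%, 10.6%), kidney 14 of 207 (6.76%, 10.4%) and heart 16 of 320 (5.00%, 7.25%). Small intestine had 9 of 206 (4.37%, 8.01%), thymus 13 of 318 (4.09%, 8.14%) and spleen 4 of 320 (1.25%, 4.35%). The ncRNA share was below that of all annotations in each of the 8 tissues, a difference that was not tested. Brain had 8 transcripts with an edited site and kidney 3. The Tulp4 transcript held 12 of the 14 edited sites in kidney, 14 of 22 in liver, 7 of 9 in small intestine and 3 of 4 in spleen, and 9 of 35 in brain.

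Every tissue had WT-edited sites that were also above 1% in E861A. In brain, 20 of 29 WT-edited sites stayed above 1% in E861A (69.0%, Wilson 95% interval 50.8 to 82.7%), where all annotations together gave 68.8%. In liver it was 8 of 15 (53.3%, 30.1 to 75.2%, all annotations 30.9%) and in kidney 6 of 14 (42.9%, 21.4 to 67.4%, all annotations 27.1%). Heart had 4 of 12 (33.3%, 13.8 to 60.9%, all annotations 14.6%) and BM 2 of 13 (15.4%, 4.33 to 42.2%, all annotations 7.68%). The smallest numbers were 2 of 8 in thymus (25.0%, 7.15 to 59.1%), 2 of 4 in small intestine (50.0%, 15.0 to 85.0%) and 1 of 3 in spleen (33.3%, 6.15 to 79.2%), where all annotations gave 5.43%, 5.41% and 9.36%. In all 8 tissues 1 of the kept sites was the same site of the Tulp4 transcript, described below, whose level was between 32.9% and 43.8% in every library that read it. Without that site brain kept 19 of 28, BM 1 of 12, thymus 1 of 7, small intestine 1 of 3 and spleen 0 of 2. Sites above 1% in E861A but not in WT numbered 7 of 22 in liver (31.8% of edited sites, against 12.1% over all annotations), 6 of 35 in brain (17.1%, 19.8%), 5 of 13 in thymus (38.5%, 9.45%) and 5 of 9 in small intestine (55.6%, 19.4%). They were 4 of 17 in BM (23.5%, 15.2%), 4 of 16 in heart (25.0%, 20.2%), 1 of 4 in spleen (25.0%, 17.3%) and 0 of 14 in kidney (7.71% over all annotations). The bar chart of edited sites shows these classes by tissue.

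**Figure D1:**
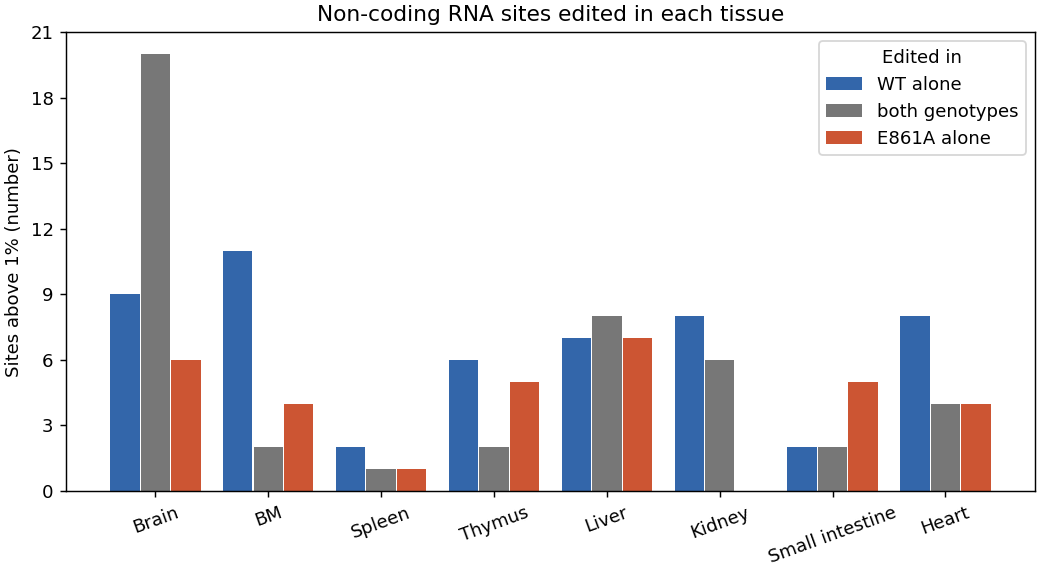
Number of ncRNA sites with a level above 1% in WT alone (blue), in both genotypes (grey) and in E861A alone (orange), for each of 8 tissues. Brain has 20 sites in both genotypes, and kidney is the tissue with 0 sites in E861A alone.

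The Tulp4 transcript uc012aji.1 contains an inverted copy of part of itself, and sites in both stretches were read. Its bases 6122573 to 6122695 aligned to the reverse complement of bases 6123012 to 6123132 with 79.8% identity over 124 aligned positions and 316 bases between them. These stretches are called the first and second arm. They held 29 of its 59 ncRNA sites and 15 of its edited ones. The 30 sites outside the arms included 9 that passed 1% in a tissue, none above 8.05% in any library. Of the 15 edited sites in the arms, 12 lay opposite a T in the aligned arm, 2 opposite a C (among them 6122608, the first-arm site with the highest group mean) and 1 opposite a G.

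In kidney the Tulp4 transcript had 12 edited sites, of which 3 fell in E861A by the test, while site 6123047 was at a mean of 38.5% in WT and 36.7% in E861A. Site 6122608 in the first arm was at 42.9%, 35.5% and 33.3% in the WT libraries and at 0 of 1761, 0 of 1553 and 0 of 760 reads in the E861A libraries, which allows levels of up to 0.170%, 0.193% and 0.395%. The groups did not overlap, and the mean of 37.3% ± 5.04 (SD, n = 3) in WT fell by 37.3 percentage points (log2 ratio change -5.92, SE 0.46, limma adjusted p = 0.000787). Site 6122620 was at 36.9%, 11.6% and 26.6% in WT and at 0.244%, 0% and 0% in E861A. Its groups did not overlap either (change -4.88, SE 0.65, limma adjusted p = 0.0028). Site 6123112, near the far end of the second arm, was at 9.51%, 13.9% and 6.38% in WT and at 0 of 136, 0 of 712 and 0 of 265 reads in E861A, which allows up to 2.21%, 0.421% and 1.13%. It too fell without overlap (change -3.54, SE 0.52, limma adjusted p = 0.00424). The log2 ratio used here is log2((level + 0.01)/(1 - level + 0.01)), with levels as fractions, and where a group is at 0 its size depends on the 0.01.

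These 3 of 14 tested were the ncRNA sites that passed in kidney, all lower, while 17.1% of all edited kidney sites passed in this direction and 0% in the other. Each of the 3 passed the 1% limit in WT and not in E861A, so the filter favoured a lower call at them. They rest on the model used. A quasi-binomial model of the read counts of single sites called none of the 3 (adjusted p of 0.339, 0.478 and 0.38), and the fit on untransformed levels called only 6122608. All 3 were called with each library left out in turn.

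A further 4 sites of the arms had every E861A library below every WT library in kidney but did not pass the test. In all, 8 of the 14 edited ncRNA sites of kidney had non-overlapping groups in this direction, against 43.5% of all edited kidney sites read in all 6 libraries, and 0 were apart in the other (0.219%). Site 6122617 in the first arm was at 23.1%, 15.3% and 26.1% in WT and at 0.0571%, 13.5% and 0% in E861A (adjusted p = 0.0779). E861A replicate 2 thus stood close to the lowest WT library at this site, and was at 0 at 6122608 and 6122620.

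The second arm kept part of its kidney editing in E861A. Site 6123078 was at 36.4%, 32.7% and 42.5% in WT and at 0%, 9.72% and 20.9% in E861A (change -3.13, SE 1.14, limma adjusted p = 0.112), and 6123082 at 39.6%, 40.4% and 54.6% in WT and at 0.676%, 14.9% and 21.7% in E861A (adjusted p = 0.0866). The groups were apart at both sites. Site 6123068 was at 11.2%, 17.0% and 33.3% against 0%, 8.24% and 18.7%, and 6123086 at 9.35%, 13.5% and 25.6% against 0%, 7.14% and 10.98%. At these 2 the groups overlapped. The lowest E861A library at all 4 was replicate 1, which also had the fewest reads over them, under 150.

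Outside the Tulp4 transcript, 2 of the covered ncRNA sites were edited in kidney. The Me3 sites described later were not covered there, and with coverage over 50 reads 21 ncRNA sites were tested in kidney. Site 3357593 of uc007hsx.1 was at 3.37%, 0.810% and 2.74% in WT and at 0.0314%, 0.720% and 0.0357% in E861A, without overlap (limma adjusted p = 0.153). Site 98139307 of the Cdk12 transcript was at 3.60% in WT replicate 1 and at or under 0.112% in the other 5 libraries. All 14 edited kidney sites passed the 1% limit in WT and 8 of them in WT alone. The filter thus favours a higher WT level in the calls and non-overlap counts above and in the following means, which are a description. Over the 14 edited sites the 3 WT libraries averaged 19.0%, 16.8% and 21.2% and the E861A libraries 2.65%, 6.64% and 7.77%, a mean of 19.0% ± 2.19 against 5.69% ± 2.69 (SD, n = 3), a difference of -13.3 percentage points. Without the Tulp4 transcript it was -1.60 points. The median change on the log2 scale was -2.19 over the 14 ncRNA sites and -1.26 over all 532 edited kidney sites, which passed the same filter.

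**Figure D2:**
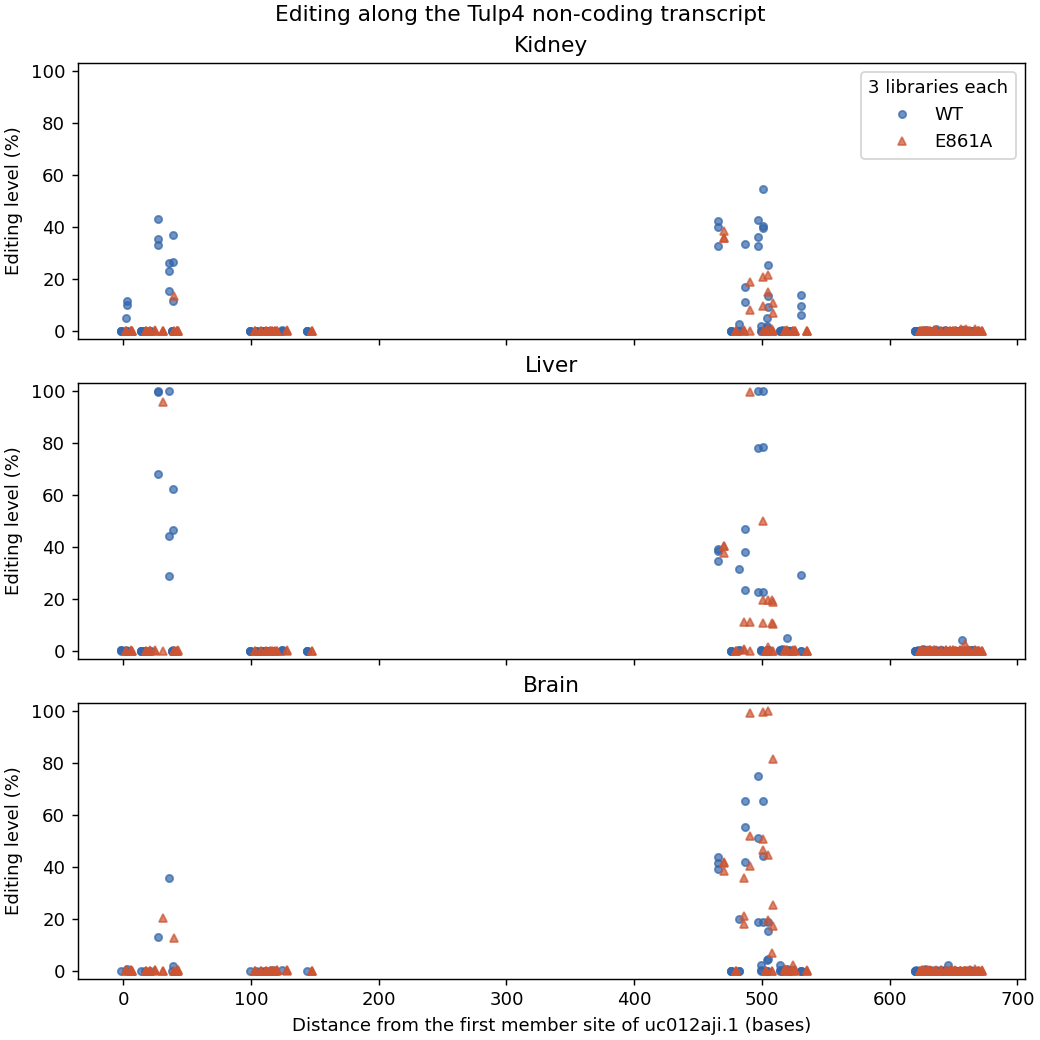
Editing level in percent of each ncRNA site of the Tulp4 transcript against its distance in bases from the first of them, in kidney, liver and brain. Blue circles are the 3 WT and orange triangles the 3 E861A libraries, where read over 100 times, shifted by 2 bases to either side. In kidney the first cluster is at 0 to 13.5% in E861A, and in brain the second cluster is high in both genotypes.

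In liver some sites of the same arms reached levels near all reads in single libraries. Site 6122608 was at 99.7%, 99.9% and 68.2% in WT and at 0.181% and 95.6% in the 2 E861A libraries that read it, and 6122617 at all reads of replicate 1, 44.2% and 28.7% in WT and at 0% and 0.112% in E861A. In the second arm 6123082 was at 22.8%, all reads and 78.5% in the WT libraries and at 19.6%, 0% and 1.38% in E861A. The genotypes did not overlap at 6123082 (change -6.93, SE 2.28, limma adjusted p = 0.136). Site 6123068 ran the other way in 1 library, with 23.5%, 47.0% and 38.0% in WT and 99.4%, 11.0% and 0% in E861A. Sites 6123085 and 6123086 were at or under 0.376% in all WT liver libraries and at 10.5 to 19.8% in E861A replicates 1 and 2, and E861A replicate 3 was near 0.1% at both. No ncRNA site passed the test in liver, where 9.75% of all edited sites were called lower. The unadjusted p was under 0.05 for 2 ncRNA sites, both lower, and the quasi-binomial model called none, while 1 fit over all 48 libraries called 10. Non-overlapping lower groups were seen at 3 of the 14 sites read in all 6 liver libraries, against 33.1% of all such sites, and higher groups at 0 (1.11%).

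Brain read only the second arm of the Tulp4 transcript in enough libraries. There 6123068 was at 41.7%, 55.2% and 65.5% in WT and at 99.2%, 51.7% and 40.3% in E861A. Site 6123078 was at 50.9%, 18.7% and 74.9% against 99.5%, 50.7% and 46.4%, and 6123082 at 65.2%, 18.8% and 44.0% against 99.7%, 19.6% and 44.7%. The genotypes overlapped at all 3, and the means differed by less than 1 SD of either group. Site 6123063 had 0.150%, 0% and 20.1% in WT against 35.9%, 21.3% and 18.0% in E861A, the only ncRNA site of brain with an unadjusted p under 0.05 and a positive change (change 3.42, SE 1.39, unadjusted p = 0.0471, limma adjusted p = 0.653). At 6123086 the libraries were at 15.2%, 4.71% and 18.7% against 81.3%, 25.2% and 17.2% (adjusted p = 0.701).

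In some libraries neighbouring sites of the second arm stood at similar levels. Taking 6123068, 6123078 and 6123082, which lie within 15 bases, the 3 levels spanned 0.543 percentage points in E861A brain replicate 1 (all above 99%), 1.76 points in E861A small intestine replicate 2 (46.6 to 48.3%), 0.671 points in WT liver replicate 1 (22.8 to 23.5%) and 0.410 points in E861A heart replicate 3 (19.7 to 20.1%). In the other 2 libraries of E861A small intestine all 3 were at or under 0.237%. In other libraries the sites differed, by 79.8 points in E861A liver replicate 1 and 53.0 points in WT liver replicate 2. Of 46 libraries that read them, 16 had all 3 above 10%, 20 had none and 10 had 1 or 2. By genotype, all 3 were above 10% in 9 of 22 WT and in 7 of 24 E861A libraries. The first group included all 6 brain libraries, all 3 WT kidney and all 3 WT liver libraries. In BM, spleen and thymus no library had all 3 above 10%.

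In BM, spleen and thymus the levels of the arms above 10%, apart from site 6123047 described next, came from single libraries. Spleen WT replicate 2 had 12.6% at 6123078 and 12.1% at 6123082, and the other WT libraries were at or under 0.406% at both. BM WT replicate 3 had 11.5% at 6123078, 11.3% at 6123086 and 11.4% at 6123112, and the 3 E861A libraries were at or under 0.302% at all of them. Thymus WT replicate 2 had 5.41% at 6123078 and 10.9% at 6123082, and thymus E861A replicate 1 had 12.3% at 6123068 and 10.8% at 6123078. Thymus E861A replicate 2 was at 1.73 to 1.96% at all 3 sites. In thymus 6122608 was at 2.72%, 0.0817% and 2.35% in WT and at 0%, 0.402% and 0.109% in E861A. The 15 sites of the first arm stayed at or under 0.929% in all covered spleen and BM libraries and reached 1.65% in heart.

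A single site of the second arm, 6123047, varied much less than its neighbours. It had over 100 reads in 46 libraries and lay between 32.9% and 43.8% in each of them, with a median of 38.6% and an SD of 2.52 percentage points. The 22 WT libraries averaged 39.1% and the 24 E861A libraries 38.3%. Group means ran from 36.1% (E861A spleen) to 41.4% (WT brain). Within a tissue the genotypes differed most in spleen, 39.8% ± 2.23 in WT against 36.1% ± 2.21 in E861A (SD, n = 3, limma adjusted p = 0.295). Thymus followed with 39.4% ± 2.33 against 36.4% ± 1.84 (SD, n = 3, limma adjusted p = 0.534). The libraries overlapped in both. Among the 56 sites of all annotations that were read in at least 40 libraries with a mean of 10 to 90%, its SD had rank 2 from the lowest, and the median SD of these sites was 23.4 points. The adenosine lies opposite a C in the first arm. The 21 bases around it occur at 229 other places of the genome with A and at 56 places with G at the site, and the part of such copies in its level was not tested.

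**Figure D3:**
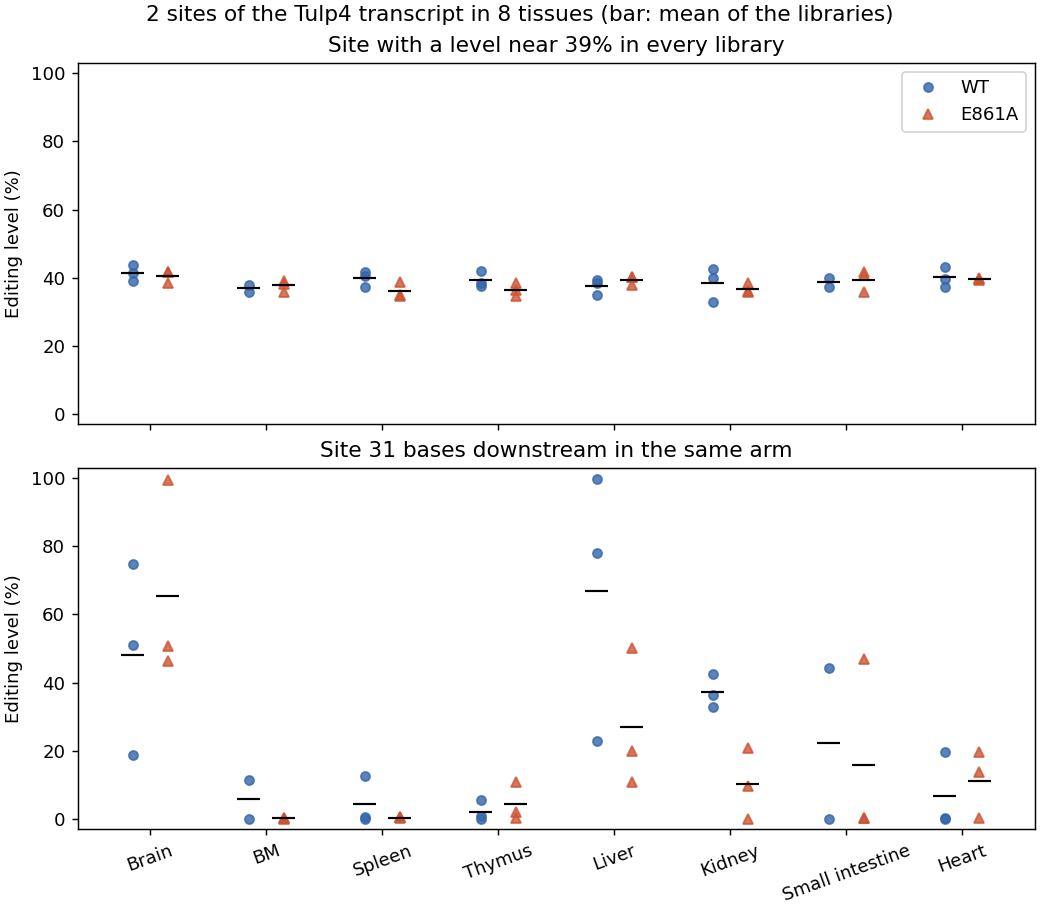
Editing level in percent of site 6123047 of the Tulp4 transcript (top) and of a site 31 bases downstream (bottom) in 8 tissues. Each symbol is a library (blue circles WT, orange triangles E861A) and black bars are means, and the upper site stays between 32.9% and 43.8% while the lower one runs from 0% to 99.8%.

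Among covered sites, the highest brain E861A group mean was in uc011ynq.1, at 83.8% ± 25.0 (SD, n = 3). Its edited cluster lies in an arm (bases 74010024 to 74010109) that aligns to the reverse complement of bases 74010311 to 74010400 with 87.8% identity over 90 positions, 201 bases apart. Site 74010050 was at 71.3% and 24.5% in the WT libraries that read it and at 55.1%, 99.9% and 96.5% in E861A, and 74010061 at 31.0% and 23.9% against 23.2%, 99.9% and 96.1%. Site 74010048 ran the other way, with 26.5% and 75.0% in WT and 41.0%, 0% and 12.7% in E861A. None passed the test (limma adjusted p = 0.701 for each), and WT replicate 2 had 0 reads at all of them. The sites 74010057 and 74010062 were at 26.2% and 43.2% in WT replicate 1 and 0% in WT replicate 3. In E861A, 74010062 was at 0.280%, 0.173% and 10.7%. The arm was not covered in liver and small intestine. Its highest level outside the brain was 7.24% in thymus WT replicate 1, and it stayed at or under 3.39% in spleen, 1.78% in BM, 0.374% in heart and 0.155% in kidney.

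The Me3 transcript uc012fou.1 was edited at 6 sites in brain, all in a stretch with an inverted copy of 88.9% identity, 1738 bases apart. Site 96914491 was at 45.9%, 0.226% and 68.5% in WT and at 23.1%, 57.6% and 10.7% in E861A, and 96914457 at 37.7%, 6.24% and 12.4% in WT and at 14.8%, 0.107% and 24.3% in E861A. The genotypes overlapped at both. Site 96914469 had 35.9%, 0.407% and 11.3% in WT against 0.287%, 0.310% and 3.99% in E861A, and at 96914444 15.0%, 0% and 12.0% against 0.409%, 0.106% and 0.258%. At 96914449 the means were nearly equal, 5.19% and 5.09%, each from 1 library near 15%. In kidney 96914491 was at 6.94%, 7.39% and 12.3% in WT and at 0.410% in the 1 E861A library that read it, and 96914457 at 29.6%, 7.00% and 19.4% against 0% in that library, too few for a test. In spleen, thymus and heart no site of the arm passed 0.957% in a library.

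The Dleu2, uc007hsx.1 and Meg3 transcripts had no inverted copy found within 5000 bases. The Dleu2 site 62295239 was at 35.5%, 33.7% and 6.85% in WT and at 0%, 0.194% and 0.452% in E861A. The groups did not overlap (change -4.60, SE 0.95, limma unadjusted p = 0.00256, adjusted p = 0.13). Site 3357593 of uc007hsx.1 (8430429K09Rik, a long intergenic RNA) was at 24.1%, 23.9% and 13.9% in WT and at 11.8%, 8.12% and 4.92% in E861A, a mean of 20.6% ± 5.83 against 8.28% ± 3.45 (SD, n = 3). E861A thus held 40.2% of the WT level without overlap (change -1.46, SE 0.66, limma adjusted p = 0.701). In liver, where the difference had the opposite sign, this site had 0.140%, 0.340% and 0.173% in WT against 0.194%, 7.26% and 9.15% in E861A, and the genotypes overlapped (change 2.01, limma adjusted p = 0.305, difference from brain 3.47, adjusted p = 0.252). The 21 bases around that site occur at 132 other places with G and at 15 with A. The Meg3 site 110797224 had 6.83%, 12.3% and 10.4% in WT against 5.99%, 6.83% and 7.58% in E861A, and the genotypes overlapped (adjusted p = 0.739). Outside brain the Meg3 site did not pass 1.91% in any library.

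The Qtrt2 site 43871111 was at 60.1% in WT replicate 2, 7.00% in WT replicate 3 and 0.168% in WT replicate 1, and at 0.0632%, 0.247% and 7.09% in E861A, so 1 library set its WT mean of 22.4%. The Cdk12 site 98139307 was at 0% and 7.51% in the WT libraries that read it and at 0.194%, 5.18% and 6.49% in E861A. Its neighbour 98139308 was at 0% in both and at 0.0985%, 5.78% and 3.31% in E861A (adjusted p = 0.701).

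**Figure D4:**
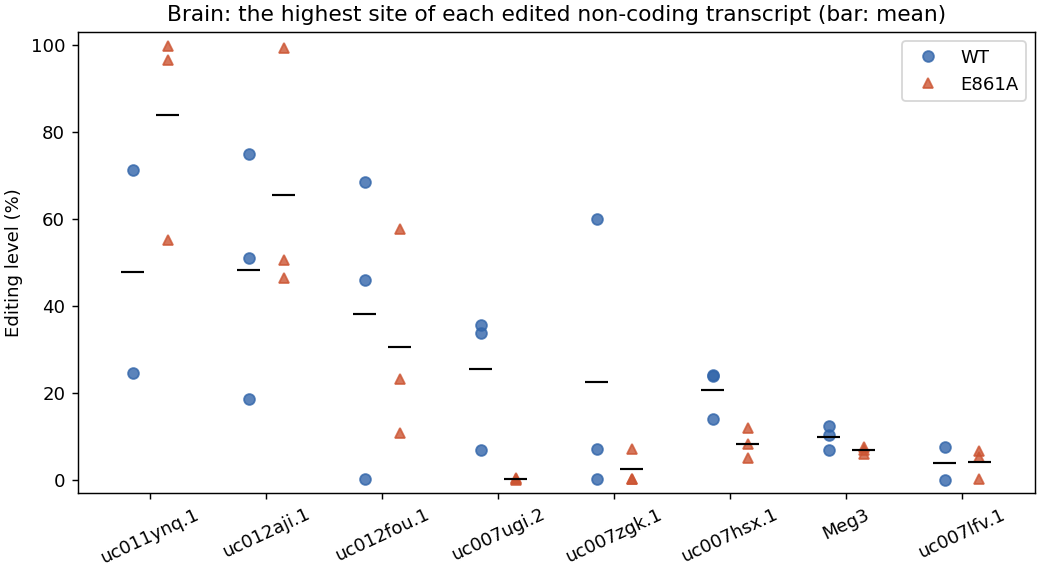
Editing level in percent in brain at the site with the highest group mean of each of the 8 edited ncRNA transcripts. Symbols are libraries (blue circles WT, orange triangles E861A) and bars are means. The genotypes are apart for uc007ugi.2 (Dleu2, 6.85% or more against at most 0.452%) and uc007hsx.1 and overlap for the other 6.

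No ncRNA site of brain passed the test, and neither did any site of another annotation (0% called of 808 in either direction). By unadjusted p under 0.05 there were 1 lower and 1 higher ncRNA site, and the quasi-binomial model called 0. A fit over all 48 libraries with 1 shared spread called 6 lower and 6 higher. The 25 edited sites read in all 6 libraries averaged 15.4% ± 3.25 in WT and 14.8% ± 5.60 in E861A (SD, n = 3), a difference of -0.561 points, which was -6.15 points without the Tulp4 transcript. Of these 25, 2 had all E861A libraries below all WT libraries, against 11.6% of all edited brain sites, and 0 had them above (6.66%). The median change was 0.08 over the 35 ncRNA sites and -0.12 over all edited brain sites.

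The remaining edited ncRNA sites were mostly high in 1 library. Site 137410924 of the long intergenic RNA 4933404O12Rik was at 25.2% in BM E861A replicate 2 and at most 0.407% in the other 5 BM libraries. Site 137493977 of Gm4793 was at 15.1% in small intestine WT replicate 2 and at most 0.0517% in the others there, and 88667294 of uc009cvm.1 at 12.4% in the same library and at most 0.348% in the other 3 that read it. In liver, 25006738 of 4831440E17Rik was at 11.5% and 2.18% in WT and 8.34% and 21.5% in E861A, with 31 other places holding its 21 bases with A and 244 with G. Site 85360439 of uc008pqq.1 reached 4.60% in E861A replicate 3 of liver. In tissues where this transcript was not covered, its site 85360434 reached 52.5% (brain WT replicate 3, 200 reads) and its site 85360272 reached 35.9%. In heart, 137410858 of 4933404O12Rik was at 20.4% in WT replicate 3 and 43871101 of Qtrt2 at 11.2% in WT replicate 1, with at most 0.713% and 0.0723% in the other 5. Of the 39 ncRNA sites above 10% in some library, 14 (35.9%) were so in exactly 1, a share close to the 37.1% of all annotations, and 10 were so in 6 or more.

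In BM, spleen, thymus, small intestine and heart limma called 0 ncRNA sites, by unadjusted p under 0.05 too, and the quasi-binomial model called 0. Among all annotations, 27% of edited sites in BM and 8.45% in spleen were called lower, 0.704% in spleen higher, and 0% in the other 3. Sites with all E861A libraries below all WT libraries numbered 1 of 6 in BM (43.9% over all annotations), 0 of 4 in spleen (25.8%), 0 of 11 in thymus (29.3%), 0 of 1 in small intestine (7.66%) and 0 of 14 in heart (8%). In thymus 1 of 11, Tulp4 site 6123086, was higher in E861A (1.87% over all annotations), and 0 were in BM (2.31%), spleen (2.31%), small intestine (4.05%) and heart (4%). Levels at 6123086 were at most 0.114% in WT and 0.145%, 1.54% and 1.37% in E861A.

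Mean levels over the edited sites read in all 6 libraries differed outside kidney by less than the larger SD of the 2 genotypes. They were 0.669% ± 0.50 in WT and 1.81% ± 2.25 in E861A in BM (6 sites), 12.1% ± 3.70 and 9.60% ± 0.482 in spleen (4 sites), 4.92% ± 0.964 and 4.50% ± 0.732 in thymus (11 sites), and 6.03% ± 3.28 and 6.30% ± 2.99 in heart (14 sites; SD, n = 3). Site 6123047 was among these sites except in BM, so BM is not comparable with the others. Without it the means were 2.93% and 0.749% in spleen, 1.47% and 1.31% in thymus and 3.41% and 3.73% in heart. The BM difference ran from -0.93 to 1.99 points with 1 library left out. In liver they were 16.7% ± 7.42 and 10.2% ± 4.54, and the libraries overlapped, and the difference of -6.54 points became 1.70 without the Tulp4 transcript. In small intestine a single site remained.

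Whether the genotype effect differed from that in brain was tested by interaction in 7 tissues. It passed at 2 sites, each edited in 1 of the tissues compared and near 0 in both genotypes of the other, so neither difference compares 2 changes in editing. Tulp4 site 6123112, which fell in kidney, was at or under 0.268% in all 6 brain libraries (difference -3.57, SE 0.58, limma adjusted p = 0.0208, with 1.25% of all sites called in this direction). The Dleu2 site 62295239, high in brain WT, was at or under 0.457% in all 6 liver libraries, and its difference of 4.70 (SE 0.99, limma adjusted p = 0.0436, with 0.352% called in this direction) restates the brain values. Its difference from brain was also 3.61 in BM, 4.42 in spleen, 3.91 in thymus, 4.56 in small intestine and 4.12 in heart (limma adjusted p = 0.15, 0.0507, 0.189, 0.0696 and 0.285), so it was not particular to liver. In the other 5 tissues limma called 0 ncRNA sites, with 2 each in BM, spleen and thymus and 1 each in small intestine and heart at an unadjusted p under 0.05. Over all annotations the lower and higher shares called were 2.53% and 0.459% in BM, 0.946% and 0.827% in spleen, 0.227% and 0.227% in thymus, 0.246% and 0.246% in small intestine and 0.115% and 0.115% in heart. In the directions opposite to the calls above they were 1.06% in liver and 0.502% in kidney. Under 14 alternatives the liver difference passed in 5 (adjusted p of 9.37e-06 to 0.387) and the kidney one in 8 (0.0034 to 0.208). Neither passed with the replicate block (adjusted p of 0.151 and 0.0714), and neither passed with any 1 of the 3 E861A replicates left out (0.143 to 0.229 in liver and 0.0942 to 0.196 in kidney). The liver one did not pass without WT replicate 1 or 2 either (0.0572 and 0.161).

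Some transcripts gave little or no measurable editing. The single site of A330023F24Rik, the host RNA of Mir29b-2 and Mir29c, lies between their hairpins and did not exceed 0.331% in any of 47 libraries. No ncRNA site lay in a hairpin of the RefSeq miRNA set. The 21 sites of uc007kve.1 had over 100 reads in only 2 libraries, and 1 of them was read as edited in all of 105 reads in E861A brain replicate 1. The 25 sites of uc009jxt.1 were read in 1 library and reached 1.39%. Neither transcript was covered in any tissue.

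The bases beside the edited adenosine were compared with the neighbour preference known for ADAR enzymes, which disfavour a G before and favour a G after the site. Of the 22 ncRNA sites with a group mean of 10% or more, 1 had a G before it (4.55%) and 14 a G after it (63.6%). Over all 7339 covered positions a G preceded 22.8% and followed 33.8%. Over the 73 edited ncRNA sites it was 11.0% and 45.2%. Sites of 1 transcript share sequence, so these shares are a description. Of those 22 sites, 18 lay in the Tulp4, Me3 and uc011ynq.1 transcripts, whose inverted copies had the lowest E-values among covered transcripts and which were grouped after their values were seen. In the aligned arms of these 3, 24 of 28 edited ncRNA sites lay opposite a T, as did 30 of 33 that were not edited.

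Exact copies of the bases around a site bear on where its reads may come from. For 256 of the 367 ncRNA sites, and 45 of the 73 edited ones, no other place in the genome held the same 21 bases, the site itself being A or G. Copies with G at the site existed for 66 sites, 19 of them edited. The called kidney sites 6122608 and 6123112 had no copy, and 6122620 had 5 with A and 0 with G. Among the second arm, 6123068 had 18908 other copies with A and 93 with G. The part of such copies in the levels was not tested.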

How the data were processed

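RNA editing levels came from 48 mmPCR-seq libraries, 3 per genotype and tissue. Per the processing notes of the submitters, reads were aligned with STAR and handled with SAMtools on mm9, with versions not given in the sources used here. The deposited tables give, for each position, the count of reads covering it and the count of edited reads that the authors obtained. They also give the fraction edited that the authors computed from these counts, and no deposited fraction differed from the ratio by more than 0.0006. The ncRNA sites and the lists were chosen with earlier results of these data known.

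Levels were taken where coverage was over 100 reads. Genotypes were compared within each tissue on log2((level + 0.01)/(1 - level + 0.01)) with limma 3.58.1 in R 4.3.3 (lmFit, then eBayes with a trend), over all edited sites of the tissue, adjusting p-values by Benjamini-Hochberg and calling those under 0.05. The difference from brain was tested by an interaction contrast over 12 libraries. The fits were also run on simulated data, with the outcome not reported here. Same-numbered libraries showed no clear correlation, so no block was used in the main fits, although this cannot show that they were unpaired. Sites were named where they passed the test, were the highest of an edited transcript, had a brain E861A mean of at least 10%, or exceeded 1% in E861A in 3 or more tissues, and any other named site was chosen after its values were seen. Inverted copies were searched within 5000 bases with blastn 2.17.0 (E-value limit 1e-5) and exact copies with pysam 0.24.0 on NCBIM37. Alternatives covered coverage, the edited limit, the offset, the scale, the model, the replicate block and leaving out each library.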

Additional observations from a re-analysis of the deposited data

Results flagged for a closer look

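Genotype effects that differed between brain and another tissue by the interaction test were seen at 2 ncRNA sites, each near 0 in both genotypes of 1 of the tissues compared. For site 62295239 of uc007ugi.2 (Dleu2) the E861A minus WT change was 4.70 higher on the log2 scale in liver than in brain (limma adjusted p = 0.0436), which restates the brain values, since WT brain was at 6.85 to 35.5% and all 6 liver libraries were at or under 0.457%. For site 6123112 of the Tulp4 transcript the change was lower in kidney than in brain by -3.57 (limma adjusted p = 0.0208), with 6.38 to 13.9% in WT kidney and 0% in the 3 E861A kidney libraries, and at most 0.268% in brain.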

How the results depend on the processing

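The 3 kidney calls became 5 with coverage over 50 reads, 1 on untransformed levels and 0 in the quasi-binomial model. One fit over all 48 libraries called 12 ncRNA sites in brain, 5 in BM, 10 in liver, 5 in kidney, 1 in small intestine and 1 in heart, and differing effects at 2 sites in BM, 1 in spleen, 2 in thymus, 4 in liver, 1 in kidney, 1 in small intestine and 1 in heart. With the replicate block kidney kept a count of 3 calls, while the liver and kidney interactions went to 0. Same-numbered libraries correlated at -0.119 to 0.238 in 24 pairs, 2 of them over 0.1, and same-numbered libraries of brain and another tissue at -0.0964 to 0.0704 in 42 pairs, none over 0.1. These values gave no clear sign of pairing, and with levels that vary this much between libraries they cannot show that there was none. Both interactions were also 0 with an offset of 0.05 or untransformed levels, and the liver one with an offset of 0.001. With coverage over 500 reads both counts were 0 because the called sites no longer had enough reads to be tested. The interaction with brain was called at 1 site each in spleen and small intestine with an edited limit of 0.05 and without a trend.

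Without the Tulp4 transcript the difference in mean level was -6.15 points in brain, 1.08 in spleen, 1.70 in liver and -1.60 in kidney. With coverage over 500 reads it was -0.75 in BM and 1.70 in liver, with an edited limit of 5% it was 8.50 in BM, -2.94 in thymus and -17.9 in kidney, and with sites read in 2 of 3 libraries it was -0.829 in BM and 2.78 in small intestine. With the 5% limit the BM value was that of site 137410924 alone and the thymus value that of 6123047 alone. The spleen value without the Tulp4 transcript was that of site 74010061 of uc011ynq.1 alone. The share of WT-edited sites kept in E861A was 0% in BM and 14.3% in kidney with coverage over 500 reads. With an edited limit of 5% it was 100% in spleen and thymus, where only 1 ncRNA site was left in each, the constant site 6123047. Without the constant site, an alternative chosen after seeing the data, it was 0% in spleen. The cause was not tested.

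Leaving out 1 library gave 0 to 2 calls in brain (2 without WT replicate 3), 0 to 1 in spleen (1 without E861A replicate 2), 0 to 3 in liver (3 without WT replicate 1), 3 to 4 in kidney and 0 to 0 in BM, thymus, small intestine and heart. Interactions ranged over 0 to 2 in spleen, thymus and kidney, 0 to 1 in liver and small intestine and 0 to 0 in BM and heart. Mean differences ranged from -3.61 to 1.30 in brain, -0.93 to 1.99 in BM, -3.85 to -0.99 in spleen, -0.927 to -0.102 in thymus, -13 to -4.79 in liver, -14.4 to -10.8 in kidney, -7.57 to 5.20 in small intestine and -1.17 to 2.72 in heart. Shares kept ranged from 55.2 to 72.0% in brain, 0 to 15.4% in BM, 33.3 to 33.3% in spleen, 12.5 to 37.5% in thymus, 44.4 to 57.1% in liver, 35.3 to 42.9% in kidney, 0 to 100% in small intestine and 20.0 to 33.3% in heart. The mean difference changed sign in brain, BM, spleen, liver, small intestine and heart under at least 1 setting, and in kidney and thymus under none of those run. By library, it did so in BM without WT replicate 2 (-0.93), in small intestine without WT replicate 2 (5.20), in brain without WT replicate 1 or 3 or E861A replicate 2 or 3 (0.30 to 1.30) and in heart without WT replicate 2 or 3 or E861A replicate 2 or 3 (-1.17 to -0.0676).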
